A study of Bos taurus with 8 samples.

Results

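Plasma exosomes of cattle carried both arms of the miR-126 hairpin, bta-miR-126-3p and bta-miR-126-5p, and the neighbouring pair bta-miR-221 and bta-miR-222. These 4 miRNAs were chosen by name, and not by a cut on their levels, from the 744 bovine miRNAs on the array. Earlier results of these data were known at that choice. All 4 were detected on all 8 arrays, as were 143 miRNAs altogether, while 231 were detected on at least 1 array.

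The samples came from 6 Japanese Shorthorn steers aged 21 to 28 months, kept in a free-stall barn (housed) or on pasture (grazing). Blood was taken at 0, 1, 2 and 4 mo, exosomes were pelleted from plasma by ultracentrifugation, and mixtures were made of the RNA of 3 steers, 1 mixture per label and month. Each mixture was hybridized to 1 Cy3-labelled array, so there are 4 arrays per label and no replicate of a label and month. The months of a label are not replicates of each other.

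miR-126 is made from an intron of EGFL7, a gene for a protein secreted by endothelial cells, the cells that line blood vessels. It is among the most abundant miRNAs of endothelium, where it is known to favour signalling by vascular endothelial growth factor through repression of SPRED1 and PIK3R2, and it is also found in platelets. Its 3p arm is the usual guide strand, and the 5p arm has targets of its own, such as DLK1. miR-221 and miR-222 are processed from 1 transcript, share their seed (the bases that pair with targets), and repress KIT in endothelium and CDKN1B in vascular smooth muscle. In the RefSeq annotation of assembly ARS-UCD2.0, MIR126 lies inside EGFL7 on chromosome 11, and MIR222 and MIR221 follow each other on chromosome X and overlap the long non-coding RNA LOC132344329.

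The probes are shown because a miRNA was measured here only through them, and because the 4 sets differ in length and in how well they gave signal. Each is a DNA strand complementary to its miRNA, written 5′ to 3′, and the longest probe of each miRNA is given. Capitals in the miR-126 probes mark 9 bases in which one arm's probe is the reverse complement of the other's, as the 2 strands of a hairpin are. Capitals in the other probes mark the 6 bases that the miR-221 and miR-222 probes share.
bta-miR-126-3p: cgcATTATTACTcacggt
bta-miR-126-5p: cgcgtaccaaaAGTAATAATg
bta-miR-221: aaACCCAGcagacaatg
bta-miR-222: ACCCAGtagccag
In these letters the probes have 18, 21, 17 and 13 bases. Of the 744 miRNAs, each run of 9 bases occurs in the probes of 1, its own arm, and the 6 bases occur in those of 5, bta-miR-221 and bta-miR-222 included.

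The array files place the miR-221 probe at chrX:103538905-103538920 and the miR-222 probe at chrX:103538218-103538229, with 675 bases between them. They give a pair of positions for the 3p probe, chr11:108009441-108009458 and chr11:104131458-104131475, and for the 5p probe, chr11:108009400-108009420 and chr11:104131417-104131437, with 20 bases between the arms in either. The file headers name only UMD 3.1 and do not say to which build each position belongs, and the strand is not stated.

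The deposited labels conflict with the value table that accompanies the study. In each of the 8 comparisons, all detected miRNAs of an array (149 to 226) matched 1 column of that table within 1%, but the 4 arrays labelled housed matched its grazing columns and the 4 labelled grazing matched its other columns. No array was moved: arrays are called by their deposited label, and every direction below is the opposite one if the table's columns are right. The share that the study's text gives for miR-126-3p in housed cattle at the start is likewise that of the array labelled grazing at 0 mo, and not that of the array labelled housed. All 8 arrays were on 1 slide, those labelled housed in one column and those labelled grazing in the other, so position and label cannot be told apart. Summed detected signal ran from 62438 to 157696 on arrays labelled housed and from 45507 to 63558 on arrays labelled grazing. Each signal was therefore divided by the 90th percentile of its own array (31.2 to 109 units) and put on a log2 scale, called the scaled level below.

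The 3p arm of miR-126 was one of the brightest miRNAs of these exosomes, and it was lower on every array labelled grazing than on every array labelled housed. Its total signal was 6083, 4822, 2564 and 4913 units at 0, 1, 2 and 4 mo on the arrays labelled housed. It was 1399, 1269, 1696 and 1449 units on those labelled grazing. The 2 sets did not overlap, and neither did its share of the summed signal (3.86% to 5.72% against 2.44% to 2.81%) or its rank by signal (3 to 5 against 7 to 8). How many of the 143 miRNAs detected on all arrays were likewise apart was not counted.

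On the scaled level, bta-miR-126-3p stood at 5.80, 5.86, 5.66 and 5.90 in the 4 months on arrays labelled housed. It stood at 5.10, 5.34, 4.92 and 5.40 on arrays labelled grazing, each value with a scanner error of 0.11. The difference, labelled grazing minus labelled housed, was -0.70, -0.51, -0.74 and -0.49 at 0, 1, 2 and 4 mo, each with an error of 0.15. The difference of the first month lay within the range of the later ones, so the labels differed as much at the start of the trial. Among arrays of 1 label, neighbouring levels in the order differed by less than 2 combined errors. The lowest and highest on arrays labelled grazing, 4.92 at 2 mo and 5.40 at 4 mo, differed by more than 2 combined errors. Those on arrays labelled housed, 5.66 and 5.90, did not.

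The 5p arm of miR-126 gave a far dimmer signal, which with different probes is no measure of how much less of it there was, and it too was lower on the arrays labelled grazing. Its total signal was 374, 381, 217 and 383 units on arrays labelled housed and 113, 94.9, 127 and 106 units on arrays labelled grazing, in month order. It ranked 36 to 44 and 48 to 51 by signal, and its share was 0.237% to 0.452% and 0.197% to 0.209%. Here too the arrays of the 2 labels did not overlap. That was also so for bta-let-7g, in total signal and on the scaled level (2.54 to 2.77 against 2.29 to 2.49), so it is not particular to the arms.

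The scaled level of bta-miR-126-5p was 1.78, 2.19, 2.10 and 2.21 on arrays labelled housed. It was 1.47, 1.60, 1.18 and 1.62 on arrays labelled grazing, with scanner errors of 0.12 to 0.13 throughout. The difference between the labels was -0.31 ± 0.18 (scanner error) at 0 mo, within 2 errors of 0. It was -0.59, -0.92 and -0.59 at 1, 2 and 4 mo, each more than 3 errors below 0.

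bta-miR-221 was a middling signal. In total signal it was lower on each array labelled grazing than on every array labelled housed, except at 2 mo. Its scaled level did not separate the labels. Its total signal was 53.3, 45.5, 27.2 and 41.6 units on arrays labelled housed and 17.9, 22.5, 63.9 and 14.9 units on arrays labelled grazing. The array labelled grazing at 2 mo held the highest value of all 8, although its summed signal was less than that of 3 of the arrays labelled housed.

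On the scaled level, bta-miR-221 was -1.03, -0.87, -0.90 and -0.99 on arrays labelled housed, where the highest and the lowest differed by less than their combined scanner error. It was -1.18, -0.47, 0.19 and -1.20 on arrays labelled grazing. Set against its own 0 mo array, it was 1.37 ± 0.21 (scanner error) higher at 2 mo, 0.71 ± 0.23 higher at 1 mo and -0.02 ± 0.26 at 4 mo. The labels differed by 1.08 ± 0.19 at 2 mo and 0.40 ± 0.20 at 1 mo, and by less than 1 error at 0 and 4 mo. A scanner error covers the reading of 1 array and not the spread between pools.

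bta-miR-222 lay near the limit of detection. Its total signal was 18.8, 15.2, 8.33 and 11.8 units on arrays labelled housed and 4.86, 6.67, 11.0 and 4.01 units on arrays labelled grazing, where the lowest detected signal of any miRNA on an array was 3.28 to 4.10 units. Each value carried an error of 1.94 to 2.60 units. At 0 and 4 mo of the label grazing the signal was 2.40 and 2.07 times its error, and the scaled levels there have errors of 0.60 and 0.70.

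The scaled level of bta-miR-222 was -2.54, -2.45, -2.60 and -2.81 on arrays labelled housed. It was -3.07, -2.23, -2.35 and -3.09 on arrays labelled grazing. No difference between the labels in any month reached 1 error. The highest 2 of the 8 levels were those of the label grazing at 1 and 2 mo and the lowest 2 were those at 0 and 4 mo. The same 2 arrays were highest and the same 2 lowest for bta-miR-221. For bta-miR-222, the levels at 1 and 2 mo were 0.84 ± 0.75 and 0.72 ± 0.68 (scanner error) above that label's 0 mo array, each little more than 1 error.

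**Figure D1:**
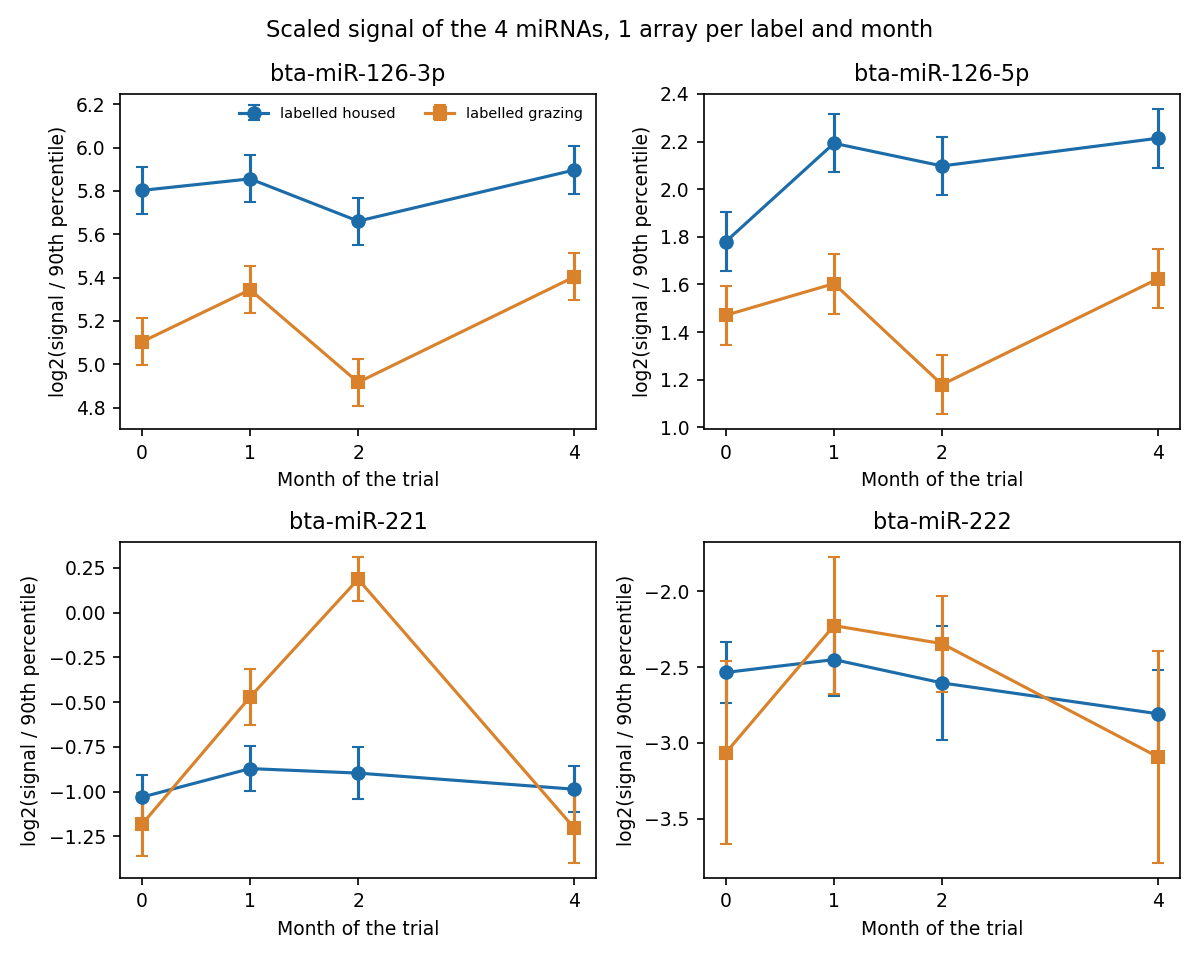
Scaled level, log2(signal / 90th percentile of the array), of each miRNA (y axes, each with its own range) against month (x axes), with circles for arrays labelled housed, squares for arrays labelled grazing and bars for the scanner error of 1 array. The 2 arms of miR-126 are lower on arrays labelled grazing in all 4 months, while bta-miR-221 is highest on the array labelled grazing at 2 mo, at 0.19.

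To ask whether the labels differed once feeding had begun, the 6 arrays of 1, 2 and 4 mo were compared in limma with month as a block. The test covered the 143 miRNAs with a detected signal throughout and called 16 of the 143 (11.2%) at an adjusted p under 0.05, and 1 of the 4 miRNAs was among them. bta-miR-126-5p was lower on arrays labelled grazing, with a log2 difference of -0.70 ± 0.20 (SE, limma adjusted p = 0.0327), which is 1.62-fold, in 3 of 3 months. Set against their own 0 mo array, the later months had a mean change of 0.39 on arrays labelled housed and -0.0018 on arrays labelled grazing. Its difference was the 6th lowest of the 143. bta-miR-126-3p had a difference of -0.58 ± 0.20 (SE, adjusted p = 0.0562), in 3 of 3 months as well, but did not pass.

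The other 2 did not pass either: bta-miR-221 had 0.42 ± 0.23 (adjusted p = 0.215), which was 0.092 without the 2 mo arrays and 0.74 without the 4 mo arrays (adjusted p = 0.81 and 0.345), and bta-miR-222 0.066 ± 0.20 (adjusted p = 0.838). The median difference of all 143 was -0.0094, and set against that median bta-miR-126-3p lay at -0.57 and bta-miR-126-5p at -0.69. Another factor per array cannot move these values. Under quantile normalization they were -1.002 and -0.574, and with normexp -0.95 and -0.79. bta-let-7g, the reference of the study's PCR, was itself at -0.33 ± 0.20 (adjusted p = 0.258). Against bta-let-7g, bta-miR-126-5p was at -0.37 (adjusted p = 0.115) and bta-miR-126-3p at -0.26 (adjusted p = 0.198). The call for bta-miR-126-5p was kept under 2 of 13 other settings, and in all 13 its difference was below 0.

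To allow for the difference at the start, the change from 0 mo was also compared between the labels. Over all 8 arrays, limma called 2 of 143 miRNAs (1.40%) for that difference in change, and none of the 4 was called. The estimates were 0.12 ± 0.39 for bta-miR-126-3p, -0.39 ± 0.40 for bta-miR-126-5p, 0.57 ± 0.47 for bta-miR-221 and 0.60 ± 0.41 for bta-miR-222 (SE, adjusted p = 0.802 to 0.961). The first of these took the opposite sign under 4 of 13 other settings. The standard errors of this contrast, 0.39 to 0.47, were larger than those of the later months, 0.20 to 0.23, since each label has 1 array at 0 mo.

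**Figure D2:**
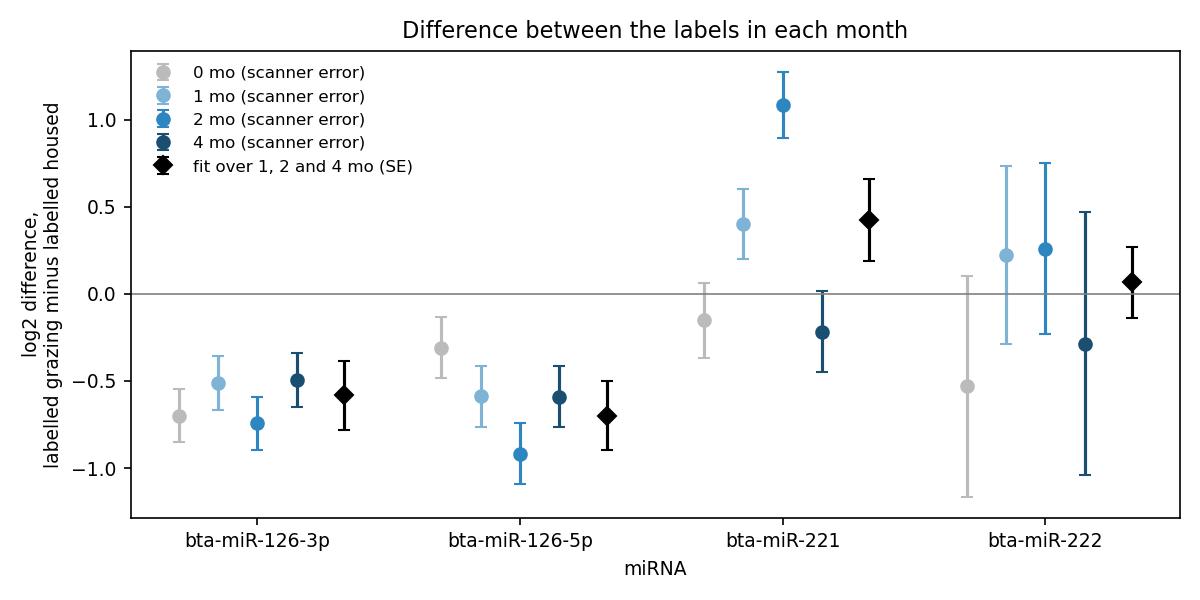
Log2 difference of scaled levels, labelled grazing minus labelled housed (y axis), for each miRNA (x axis), with circles for single months and their scanner error, and diamonds for the limma estimate over 1, 2 and 4 mo and its SE. All 4 months lie below 0 for both arms of miR-126, and the 2 mo value of bta-miR-221, 1.08, stands above its other months.

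The 2 arms of miR-126 come from 1 hairpin, so their ratio on an array asks whether they moved together, and no scaling enters it. Probes of different miRNAs bind differently, and the ratio is therefore read only between arrays. The log2 ratio of 3p to 5p was 4.02, 3.66, 3.56 and 3.68 on arrays labelled housed and 3.63, 3.74, 3.74 and 3.78 on arrays labelled grazing, each with an error of 0.16 to 0.17. The array labelled housed at 0 mo was highest, and the other 7 lay between 3.56 and 3.78, a spread within their errors. Over the 4 months the labels differed by -0.010 ± 0.26 (SD over months, n = 4 months, two-sided exact sign-flip permutation test, p = 1; 4 months cannot give a p under 0.12). It was higher on the array labelled grazing in 3 of 4 months, and with normexp the mean was -0.26 (exact p = 0.25) and it was higher in 1 of 4.

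The high value at 0 mo was seen with each pairing of the 2 probes of either arm. The longer 3p over the longer 5p probe gave 3.74 there and 3.27 to 3.52 on the other 7 arrays, and the shorter over the shorter gave 4.98 there and 4.42 to 4.65. Within 1 miRNA, the log2 ratio of the longer to the shorter probe stayed at 1.09 to 1.16 for bta-miR-126-3p and at 2.16 to 2.40 for bta-miR-126-5p over all 8 arrays. The array labelled housed at 0 mo also had the highest summed signal of the 8, 157696 units, and its part in this value was not tested.

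Of 74 hairpins with both arms on the array, 3 had both detected on all arrays, and the others are miR-151 and miR-17. The log2 ratio of 3p to 5p ran from -2.75 to -2.39 for miR-151 and from -3.84 to -2.87 for miR-17. Its SD over the 8 arrays was 0.14 for miR-126, 0.13 for miR-151 and 0.37 for miR-17, whose errors of 0.20 to 0.63 were the largest. All 3 hairpins had their highest ratio on the array labelled housed at 0 mo, though miR-151 had -2.40 on the array labelled grazing at 2 mo, within the error of -2.39.

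The log2 ratio of bta-miR-221 to bta-miR-222 was 1.50, 1.58, 1.71 and 1.82 on arrays labelled housed and 1.88, 1.76, 2.53 and 1.89 on arrays labelled grazing. The value at 2 mo of the label grazing, 2.53 ± 0.34 (scanner error), was the highest. The other 7 lay between 1.50 and 1.89, with errors of 0.23 to 0.72. Against the 0 mo array of the label grazing, the 2 mo value was 0.65 ± 0.71 higher, which is within 1 error. On the scaled level bta-miR-221 was higher at 2 mo than at 1 mo of that label. bta-miR-222 was at -2.35 ± 0.32 at 2 mo and -2.23 ± 0.45 at 1 mo, too imprecise to say whether it rose. In each of 4 months the ratio was higher on the array labelled grazing, by 0.38, 0.18, 0.82 and 0.07, but only the 2 mo difference was larger than its error of 0.53.

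The mean of the 4 was 0.36 ± 0.33 (SD, n = 4 months, two-sided exact sign-flip permutation test, p = 0.12, which is 2 of 16 sign patterns and the smallest that 4 months allow). With the spot signals corrected by normexp the mean was -0.0020 and the ratio was higher in 1 of 4 months. With the values of the deposited series table the mean was 0.14 (p = 0.875 by the same exact test) and the ratio was higher in 2 of 4 months. With the 2 mo arrays left out it was 0.21. The shortest probe of bta-miR-222, of 12 bases, gave no spot well above background on any array and a signal below 0 on 6 of 8, which enters the total. With the longest probe of each miRNA alone, the mean was 0.24 and the ratio was higher in 3 of 4 months. Of the 20 spots of that probe, 3 to 20 were well above background, against 13 of 13 on every array for the longest miR-221 probe and 20 of 20 for each miR-126 probe.

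**Figure D3:**
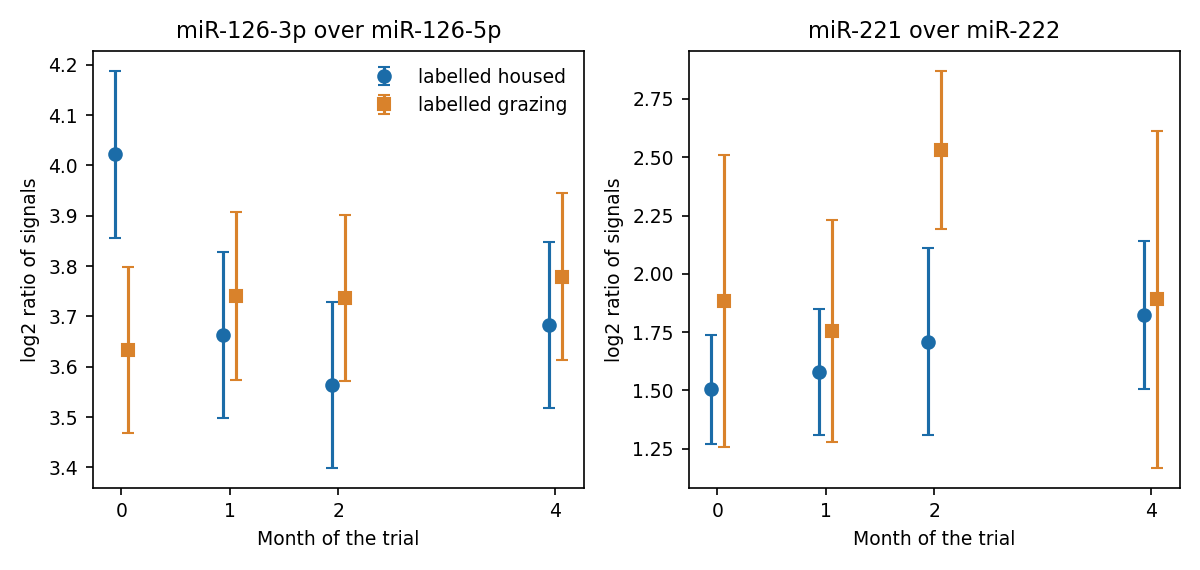
Log2 ratio of total signals (y axes) for the arms of miR-126 (left) and for bta-miR-221 over bta-miR-222 (right) against month (x axes), 1 point per array, with bars for the scanner error of the ratio. In the arm ratio the array labelled housed at 0 mo is highest, at 4.02, and in the pair the array labelled grazing at 2 mo is highest, at 2.53.

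Across the 8 arrays, which share a slide and differ in total signal, the scaled levels of the arms went together (Pearson r = 0.93), and those of bta-miR-221 and bta-miR-222 less closely (r = 0.74). Between the arms and bta-miR-221, r was -0.53 for bta-miR-126-3p and -0.51 for bta-miR-126-5p. Between the arms and bta-miR-222, it was 0.017 and -0.038. The 5 miRNAs most like bta-miR-126-3p were bta-miR-139 (r = 0.99), bta-miR-195 (0.99), bta-miR-10b (0.97), bta-miR-125b (0.95) and bta-miR-193a-3p (0.94). Its own 5p arm came 8th among 142.

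The 5 most like bta-miR-126-5p were bta-miR-100 (r = 0.97), bta-miR-144 (0.97), bta-let-7g (0.97), bta-let-7e (0.96) and bta-miR-451 (0.95). Those most like bta-miR-221 were bta-miR-223 (0.93), bta-miR-19a (0.90), bta-miR-148a (0.89), bta-miR-128 (0.89) and bta-miR-148b (0.89). Those most like bta-miR-222 were bta-miR-425-5p (0.94), bta-miR-374b (0.91), bta-miR-345-5p (0.88), bta-miR-29b (0.88) and bta-miR-21-5p (0.87). bta-miR-222 came 17th in the order for bta-miR-221, and bta-miR-221 came 19th in that for bta-miR-222. These values describe 8 arrays and carry no test.

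Other miRNAs linked to blood vessels were read beside these. Of 21 on a list of such miRNAs, 15 were detected on all arrays. None of these passed the test over the later months in either direction, against 11.2% of all 143. At that share, a list this small would hold few calls. Their median difference was -0.23, with 12 of 15 below 0, against 72 of 143 below 0 overall. For the difference in change from 0 mo, their median was 0.15, and so was that of all 143. Members of 1 cluster, such as miR-17-92, are not separate readings. bta-miR-10b, which is known to act in the growth of new vessel sprouts, had a difference of -0.55 ± 0.20 (SE, adjusted p = 0.0562). bta-miR-27b, which also acts in sprouting, had -0.54 ± 0.20 (adjusted p = 0.0637), and bta-miR-92a of the miR-17-92 cluster had 0.34 ± 0.20 (adjusted p = 0.253).

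miRNAs of blood cells were read in the same way, since vesicles of plasma come from many cells. Less vesicle material from a cell type and less of a miRNA per vesicle cannot be told apart in these data. Of 4 red cell miRNAs, 2 passed, against 11.2% of all 143, and both were lower on arrays labelled grazing, bta-miR-144 at -1.38 ± 0.22 and bta-miR-451 at -0.92 ± 0.22 (SE, adjusted p = 0.001 and 0.014). All 4 were below 0, with a median of -0.77. The list took 1.89% to 4.45% of the summed signal on arrays labelled housed and 1.49% to 1.94% on those labelled grazing. These ranges overlap. Like the miR-126 arms, the list was lower on arrays labelled grazing over the later months. Its median difference in change was -0.68, against 0.12 for bta-miR-126-3p and -0.39 for bta-miR-126-5p. Its part in the difference of the arms was not tested.

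Of 10 platelet miRNAs, 9 were detected on all arrays and none passed, against 11.2% of all 143. Their median was -0.12, with 6 of 9 below 0. They took 3.13% to 5.02% of the summed signal on arrays labelled housed and 2.49% to 5.55% on those labelled grazing, ranges that overlap. bta-miR-191 of that list was detected on no array. Of 8 leukocyte miRNAs, 6 were detected on all arrays, and 1 of them passed, a share near the 11.2% of all 143. It was bta-miR-150 of lymphocytes, higher on arrays labelled grazing at 0.83 ± 0.20 (SE, adjusted p = 0.014). The median of the 6 was 0.41. bta-miR-223, a miRNA of myeloid cells and platelets and the one most like bta-miR-221, had 0.42 ± 0.22 (adjusted p = 0.184).

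Of 5 miRNAs known from exercise plasma, bta-miR-221 and bta-miR-222 among them, 4 were detected on all arrays. None passed, against 11.2% of all 143, and 2 of the 4 were below 0. In smooth muscle, bta-miR-143 was detected on no array and bta-miR-145 on 7. In skeletal muscle, 5 of 6 miRNAs were detected on no array. Of 3 liver miRNAs, bta-miR-192 was detected on all 8 arrays, at 0.11 ± 0.22 (adjusted p = 0.74), and bta-miR-122 and bta-miR-194 on 5 each. The lists overlap, and were chosen with earlier results of these data known.

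**Figure D4:**
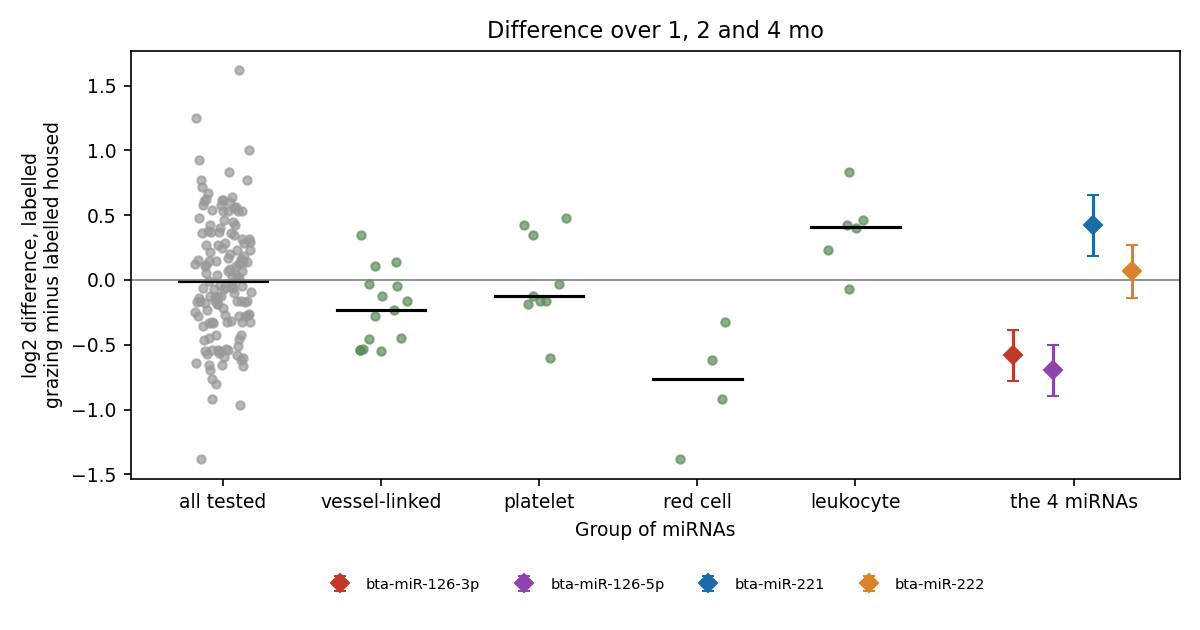
Log2 difference over 1, 2 and 4 mo, labelled grazing minus labelled housed (y axis), of the 143 miRNAs tested, of list members detected on all arrays, and of the 4 miRNAs described here (x axis), with 1 point per miRNA, a line at each median and bars for the SE of the 4. The arms of miR-126 sit at -0.58 and -0.70 and the 4 red cell miRNAs have a median of -0.77, while the median of all is near 0.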

How the data were processed

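The deposited array files hold Cy3 intensity values that the authors read out in Feature Extraction (Agilent, version 10.7.3.1): per the file headers, a background-subtracted total gene signal per miRNA, its error, and other flags such as detection. The deposited series table holds 1 ratio per miRNA and array. It was read here as the raw signal over 1 factor per array of 38.9 to 151. For the arms of miR-126 that reading held, since the arm ratio difference was -0.010 by total signals and by that table. It did not hold throughout for bta-miR-221 and bta-miR-222, whose pair ratio difference was 0.36 by total signals and 0.14 by that table. A factor shared by an array cancels in such a ratio, and the cause was not tested. The direction and centring of that table are those of the raw signals, and the authors' methods name a global normalization to the 90th percentile in GeneSpring GX.

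Total gene signals were divided by the array's 90th percentile over 744 miRNAs, and values undetected or under 0.114 were set to 0.114 before log2. limma 3.58.1 in R 4.3.3 fitted month and label over the 143 miRNAs detected on all arrays, with 2 residual degrees of freedom and Benjamini-Hochberg adjustment. p-values measure how the difference between the labels varied over the months, with each miRNA's variance drawn by limma toward a value shared by the miRNAs tested. SE and p of 1 miRNA therefore rest partly on the others. For bta-miR-126-5p in the later months, the SE was 0.20 over 143 miRNAs and 0.10 over 231 (limma adjusted p = 0.0327 and 0.222). The study kept 3 steers in each group, so the pools of a label are repeated samples of the same animals. No spread between animals or independent pools enters. In a simulation of the later months over 143 miRNAs, 20 changed by 2 (log2, noise SD 0.2) were recovered in 100%, with 0 false calls. That change was larger than any later-months difference of the 4 miRNAs, and the noise was independent between arrays. The simulation checks the working of the fit and not its recovery or false calls at the sizes reported here. Ratios were tested by exact sign flips over months.

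The error is the scanner software's, which combines spots of 1 array. No spot was saturated. The number of arrays limits precision. Named miRNAs are the 4, members of the lists, hairpins with both arms detected throughout, the 5 likest to each and bta-let-7g. Mature sequences were not used here, so seeds were not searched. Members and lists were chosen with earlier results of these data known. Alternatives covered scaling, spot signal, background correction, detection filter and months.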

Additional observations from a re-analysis of the deposited data

Results flagged for a closer look

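The arm ratio of miR-126 changed in opposite directions from 0 mo under the 2 labels. The log2 ratio of 3p to 5p was lower than at 0 mo in 3 of 3 later months on arrays labelled housed, by a mean of -0.39 (changes of -0.36, -0.46 and -0.34). It was higher in 3 of 3 on arrays labelled grazing, by a mean of 0.12 (changes of 0.11, 0.10 and 0.15). Each single change has a scanner error of 0.23, so that those of the label grazing are all smaller than their error. All 3 changes of a label share 1 array of 0 mo. The difference between the labels in change was 0.51, with p = 0.25 by exact sign flips over 3 months, the smallest that 3 months allow. No value stood apart from the other 3 of its label by Dixon's criterion in any of 20 sets of 4 arrays, where chance sets apart about 1 in 20.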

How the results depend on the processing

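Depth limits bta-miR-222 most, at 2.07 to 7.24 times its error. The labels conflict with the study's value table, so no direction by feeding is settled. For the later months, bta-miR-126-5p lost its call, still below 0, under the 75th percentile (-0.89), scaling to bta-let-7g (-0.37), quantile normalization (-0.60), no scaling (-1.54), summed signal (-0.98), mean spot signal (-0.68), the series table (-0.64), all miRNAs detected on at least 1 array (-0.70), and without the 1, 2 or 4 mo arrays (-0.75, -0.59 and -0.75); adjusted p over the 13 settings ran from 0.0125 to 0.345. Both arms were called with the 90th percentile over miRNAs detected on all arrays and with normexp, where bta-miR-126-3p was at -0.70 and -0.92. bta-miR-221 turned to -0.42 with no scaling, which moved the median of all tested miRNAs to -0.85. bta-miR-222 turned to -0.037 (75th percentile), -0.048 (90th over miRNAs detected on all arrays), -0.22 (quantile), -0.77 (no scaling), -0.22 (summed signal), -0.013 (without 1 mo) and -0.031 (without 2 mo). The number of miRNAs called in the later months was 5 (75th percentile), 29 (90th over miRNAs detected on all arrays), 33 (bta-let-7g), 0 (quantile), 3 (no scaling), 3 (summed signal), 8 (mean spot signal), 8 (series table), 1 (detected on at least 1 array), and 1, 2 and 0 without the 1, 2 or 4 mo arrays, against 16; the settings with 0 limma calls had 14 and 46 miRNAs at an unadjusted p under 0.05.

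In the difference in change, limma called 0 miRNAs under 12 settings, with 4 to 16 at an unadjusted p under 0.05, and 14 with all miRNAs detected on at least 1 array, against 2. There bta-miR-126-3p turned to -0.036 (75th percentile), -0.32 (90th over miRNAs detected on all arrays), -0.37 (quantile) and -0.21 (summed signal), and bta-miR-126-5p to 0.19 (no scaling). The arm ratio difference turned to 0.12 in later months only, 0.51 as change from 0 mo, and 0.014 with the longest probe only, the last chosen after seeing the data, as was leaving out months for the ratios. The arm ratio difference was -0.26 with normexp. The pair ratio difference was 0.14 with the series table and turned to -0.0020 with normexp and -0.021 as change from 0 mo. The cause of these changes was not tested. No paired analysis was possible by replicate number, because each label and month has 1 array; the labels were paired by month in the later-months fit and in the ratio tests.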
